A study of Mus musculus with 8 samples.

Results

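Kruppel-like factors are transcription factors that bind GC-rich and CACCC-type DNA through zinc fingers at the end of the protein. Klf2, Klf4 and Klf5 sustain the naive state of mouse embryonic stem cells and partly replace each other, whereas the other members are better known from blood, fat, nerve, lymphocyte and stress biology. The genes described are 9 members of this family (Klf2, Klf3, Klf4, Klf5, Klf6, Klf9, Klf10, Klf13 and Klf16), taken by name from the 17727 genes with a usable value. Klf2, Klf4 and Klf5 are treated as the naive regulators and the other 6 as paralogs. Each of the 9 had a single row in every sample, and all passed the filter on low values (1 FPKM or more on average across the samples), which 11269 genes passed.

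Levels came from total RNA of E14TG2a cells, a 129/Ola mouse embryonic stem cell line. All 8 samples were of passages 3 to 6 and had been grown on gelatin without feeder cells, in serum with leukaemia inhibitory factor (LIF) and the kinase inhibitors CHIR99021 (against GSK3) and PD0325901 (against MEK). The groups were wild-type cells (WT) and the enhancer knockouts E1-KO, E2-KO and E3-KO, made by CRISPR/Cas9, with 2 biological replicates each. The study asked how enhancers and promoters that associate bear on Sox2. The positions of the deleted enhancers and the number of clones behind each knockout are not given in the sources used here, so the loss of an enhancer and the origin of an edited line cannot be told apart. In bulk RNA, fewer cells of a type and less RNA per cell also cannot be told apart.

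Values are FPKM, fragments scaled to transcript length and to the mapped total of the sample. Absolute depth could not be recovered, and steps between low values put the depth of the other samples at 0.785 to 1.009 of that of WT replicate 1. Replicates correlated across tested genes, which are not independent, at 0.985 to 0.994 (log2 scale), and samples of different groups at 0.941 to 0.982. Sox2 averaged 133.4 FPKM in WT, and 59.15, 105.5 and 94.35 FPKM in the knockouts E1, E2 and E3. The defining stem cell genes Pou5f1 (360.0 to 553.1 FPKM over the samples) and Nanog (372.8 to 618.1 FPKM) were high throughout. The summed level of all 10 stem cell markers was 2310 to 2430 FPKM in WT and 1980 to 2560 FPKM in the knockouts. Of all tested genes 15.0%, 14.2% and 13.9% were called higher and 23.0%, 22.0% and 30.8% lower in the knockouts E1, E2 and E3 (limma-trend, described below). Of the 10 markers 2, 5 and 2 were called higher and 4, 2 and 3 lower. Among these, Dppa5a fell in all 3 (means of 743.6 FPKM in WT and 456.5, 480.7 and 481.5 in the knockouts), whereas Utf1 rose in all 3 (51.3 and 121.9, 113.8 and 82.28 FPKM) and Lin28a in the knockouts E1 and E2 (10.84 FPKM in WT and 28.56 and 24.87 FPKM). Of the 8 markers of feeder fibroblasts, summed levels were 3.5 to 3.56 FPKM in WT and 3.48 to 5.7 FPKM in the knockouts. Dcn and Lum were at 0 in 6 of the 8 samples each, whereas Pdgfrb was at 1.115 to 2.144 FPKM over the samples. Thy1 had means of 0.7678 FPKM in WT and 2.613, 1.529 and 2.693 FPKM in the knockouts E1, E2 and E3. Summed markers of trophectoderm (8 genes, 55 to 58.7 FPKM in WT and 37.4 to 75.2 in the knockouts), primitive endoderm (5 of 7 genes with a value, 1.59 to 1.65 and 0.736 to 4.69), neuroectoderm (4 of 6, 6.79 to 8.54 and 8.74 to 12.7) and mesendoderm (6 genes, 12.8 to 14.2 and 6.04 to 8.5) also moved with the groups, and their part in the results below was not tested.

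Promoter stretches of members were compared by their matches to short DNA patterns. RefSeq promoter windows (GRCm38.p6) were at hand for 6 members, not for Klf5, Klf10 and Klf16, and the stretch from 250 to 51 bases before the start of the gene was searched. Klf4, lower in all 3 knockouts, and Klf2, lower in E1-KO alone, are shown as the naive regulators with a window. Klf13 is shown as a paralog that fell in all 3 knockouts. Capitals mark matches to CCNCNCCC on either strand, a letter pattern of the kind that KLF and SP proteins bind, with overlapping matches counted.
Klf4 promoter, chr4:55532526-55532725, minus strand: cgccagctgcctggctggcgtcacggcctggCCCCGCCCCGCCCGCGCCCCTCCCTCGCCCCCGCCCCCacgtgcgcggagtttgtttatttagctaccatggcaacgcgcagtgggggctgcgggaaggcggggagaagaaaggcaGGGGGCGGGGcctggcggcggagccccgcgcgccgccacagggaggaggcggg
Klf2 promoter, chr8:72318812-72319011, plus strand: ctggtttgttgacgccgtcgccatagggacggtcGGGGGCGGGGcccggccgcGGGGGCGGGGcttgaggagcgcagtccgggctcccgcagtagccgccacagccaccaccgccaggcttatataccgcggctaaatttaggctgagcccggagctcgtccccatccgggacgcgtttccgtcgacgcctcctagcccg
Klf13 promoter, chr7:63938966-63939165, minus strand: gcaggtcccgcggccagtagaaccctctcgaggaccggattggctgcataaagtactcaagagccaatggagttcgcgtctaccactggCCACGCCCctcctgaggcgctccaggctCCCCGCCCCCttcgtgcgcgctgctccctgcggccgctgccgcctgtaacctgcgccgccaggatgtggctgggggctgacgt
The Klf4 stretch held 9 matches and was 76.5% G and C, and as many matches were found in 0.7% of the 32851 windows of that length. Klf2 had 4 matches and Klf13 had 3, counts reached by 6.2% and 10.5% of all windows. Klf3, which did not pass the test against WT in any knockout, had 10 matches (reached by 0.5% of windows), Klf6 had 1 and Klf9 had 0, so members with many matches were found both among those that fell and among those that did not pass. At least 1 match was present in 36.4% of all windows, whose median was 51.5% G and C. None of the 6 stretches held the STAT pattern TTCNNNGAA (in 5.8% of all windows), the SOX pattern AACAAAG (4.1%) or the octamer ATGCAAAT (1.3%). The E-box CACGTG (4.3% of all windows) was present once, in Klf4, sharing 1 base with a CCNCNCCC match. These are matches of letters in a short window and say nothing of binding.

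In WT the naive regulators were the most abundant members. Klf5 led with 194.1 ± 9.62 FPKM, followed by Klf4 with 170.0 ± 15.5 and Klf2 with 115.2 ± 8.3 FPKM (SD, n = 2 each). Klf3 (57.5 ± 4.11) and Klf9 (57.32 ± 1.48) came next with overlapping replicates, and Klf10 (51.87 ± 0.628) lay below both. Klf16 (20.72 ± 1.19) and Klf13 (18.88 ± 1.98) overlapped as well, and Klf6 was lowest at 11.22 ± 0.0494 FPKM. The replicates of all other neighbours in this order were apart. FPKM is scaled to transcript length, so these levels can be compared between genes.

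In the knockouts the order at the top changed. Klf5 stayed first in all 4 groups. In E1-KO the order of the 9 members was that of WT. In E2-KO and E3-KO, Klf2 (110.8 ± 1.9 and 127.1 ± 16.1 FPKM) stood above Klf4 (75.04 ± 8.71 and 80.01 ± 3.21 FPKM), with no overlap between their replicates. Below them the sequence Klf3, Klf9, Klf10, Klf16, Klf13 and Klf6 was the same in every group, with Klf9 and Klf10 overlapping in E2-KO.

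**Figure D1:**
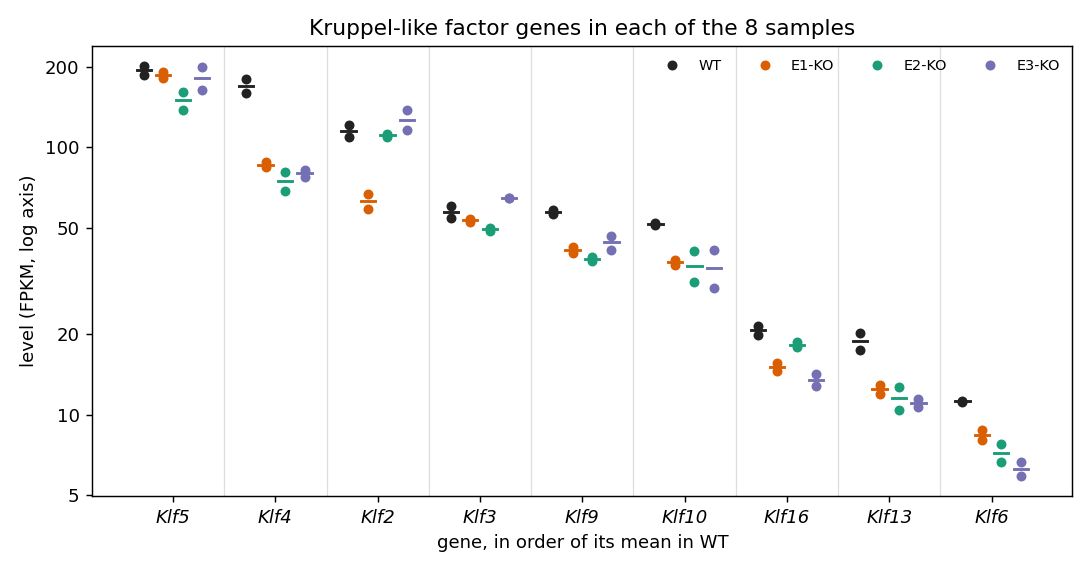
Level of each gene in FPKM on a log axis, with 1 point per sample, coloured by group, and a bar at the mean of the 2 replicates. The 2 WT points of Klf4 lie well above its 6 knockout points, Klf2 is low only in the 2 E1-KO points, and the Klf5 points of WT, E1-KO and E3-KO overlap.

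Against WT, 19 of the 27 tests of a member passed, all of them for lower levels in the knockout. The test was limma-trend on log2(FPKM + 1) over all tested genes and samples, two-sided, called at a Benjamini-Hochberg adjusted p under 0.05, and fold changes are on that scale. In E1-KO 7 of 9 members were called lower and none higher, where 38.0% of all tested genes were called in either direction, 23.0% as lower and 15.0% as higher. In E2-KO 6 of 9 were lower and none higher (36.1% of all genes called, 22.0% lower, 14.2% higher). In E3-KO 6 of 9 were lower and none higher (44.7% of all genes called, 30.8% lower, 13.9% higher). The median log2 fold change of the members was -0.47, -0.52 and -0.55, beside -0.06, -0.08 and -0.15 for all tested genes. With median-ratio scaling, which removes that general shift, E1-KO had 5 members lower and E2-KO 4, with none higher (37.5% and 35.3% of all tested genes called). E3-KO then had 4 members lower (Klf4, Klf6, Klf13 and Klf16) and 2 higher (Klf2 at 0.311 and Klf3 at 0.346). Of the 11269 tested genes, 2352 were lower and 2374 higher in E3-KO with this scaling. Several of the 19 calls ended in fits that left 1 sample in the knockout compared or in WT. Fewer of all tested genes were called in those fits as well. With any 1 sample left out, the fold changes in E1-KO ranged from -0.504 to -0.431 for Klf9, -0.663 to -0.46 for Klf13 and -0.49 to -0.379 for Klf16. The 3 comparisons share the WT samples, so each knockout's values are given side by side.

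Klf4, a reprogramming factor that LIF induces through STAT3, had the largest fall of the 9 in every knockout. It measured 159.1 and 181.0 FPKM in WT. The knockout samples gave 84.25 and 87.91 (E1-KO), 68.88 and 81.2 (E2-KO), and 82.27 and 77.74 (E3-KO). Every knockout sample was thus far below both WT samples, and the means were 50.6%, 44.1% and 47.1% of WT. The log2 fold changes were -0.97, -1.17 and -1.08 (standard error 0.113 each, limma-trend adjusted p = 0.000451, 0.000247 and 0.000189). Between knockouts Klf4 differed by -0.20 (E2-KO minus E1-KO, 95% interval -0.45 to 0.05), -0.10 (E3-KO minus E1-KO, -0.36 to 0.15) and 0.10 (E3-KO minus E2-KO, -0.16 to 0.35), none of which passed. A lower fold change than that of Klf4 was seen for 4.06%, 2.21% and 4.46% of all tested genes in the 3 comparisons.

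Klf2, which MEK inhibition stabilises as a protein and which is best known from endothelial and T cells, was lower in E1-KO alone of the 3 comparisons with WT. WT samples had 109.4 and 121.1 FPKM and E1-KO samples 59.07 and 67.03, so the groups were apart. E2-KO (109.5 and 112.2 FPKM) lay within the range of WT, and E3-KO (138.5 and 115.7 FPKM) overlapped it. The fall in E1-KO was -0.86 (standard error 0.118, limma-trend adjusted p = 0.000923), while the other fold changes were -0.05 for E2-KO (95% interval -0.32 to 0.21) and 0.14 for E3-KO (-0.13 to 0.40). The difference between knockouts passed when tested directly. Klf2 was higher in E2-KO than in E1-KO by 0.81 (standard error 0.118, limma-trend adjusted p = 0.025) and higher in E3-KO than in E1-KO by 1.00 (0.118, limma-trend adjusted p = 0.000615). The former was the single member called between these lines, where 0.834% of all tested genes were called (0.488% higher, 0.346% lower). It missed the threshold in the samples of the pair alone (adjusted p = 0.0541), with all genes above 0 (0.0809) and when any 1 sample of E1-KO, E2-KO or WT was left out. Sox2 likewise had its lowest mean in E1-KO.

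Klf5, which supports self-renewal and the first lineage choices of the embryo, passed against WT in E2-KO and in neither other knockout. Its samples measured 187.3 and 200.9 FPKM in WT, 191.1 and 181.6 (E1-KO), 161.8 and 138.4 (E2-KO), and 164.5 and 199.3 (E3-KO). Both E2-KO samples were below every WT and E1-KO sample, whereas E1-KO and E3-KO overlapped WT. The fold change was -0.37 in E2-KO (standard error 0.125, limma-trend adjusted p = 0.044), a call that ended with median-ratio scaling (-0.282, adjusted p = 0.112), in limma without trend (0.062), with all genes above 0 (0.0761) and without any 1 of E1-KO replicates 1 and 2, E2-KO replicate 2 and WT replicates 1 and 2. It was -0.06 in E1-KO (95% interval -0.34 to 0.22) and -0.10 in E3-KO (-0.38 to 0.18). Klf5 was also the only member that did not pass the test over all 4 groups (limma-trend F test, adjusted p = 0.0953), which the other 8 passed and which called 54.5% of all tested genes.

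The summed level of Klf2, Klf4 and Klf5 came to 479.3 ± 33.4 FPKM in WT and to 335.5 ± 1.48, 335.9 ± 5.93 and 389.0 ± 5.31 FPKM in the knockouts E1, E2 and E3 (SD, n = 2 each). The sums of E1-KO and E2-KO were nearly equal, but their make-up differed. Klf2 made up 17.7% and 19.9% of the sum in the E1-KO samples and 32.2% and 33.8% in the E2-KO samples, beside 24.0% and 24.1% in WT and 35.9% and 29.5% in E3-KO. Klf4 made up 34.9% and 36.0% of the sum in WT and 19.8% to 26.1% in the knockout samples. Klf5 made up 57.1% and 54.0% in E1-KO, more than in any other sample (39.9% to 50.7%). The paralogs summed to 217.5 ± 9.34 FPKM in WT and to 167.6 ± 1.23, 160.7 ± 9.52 and 175.3 ± 5.19 in the knockouts, and the naive regulators kept 66.5% to 69.6% of the total of the 9 in every sample. These sums and shares are given without a test.

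**Figure D2:**
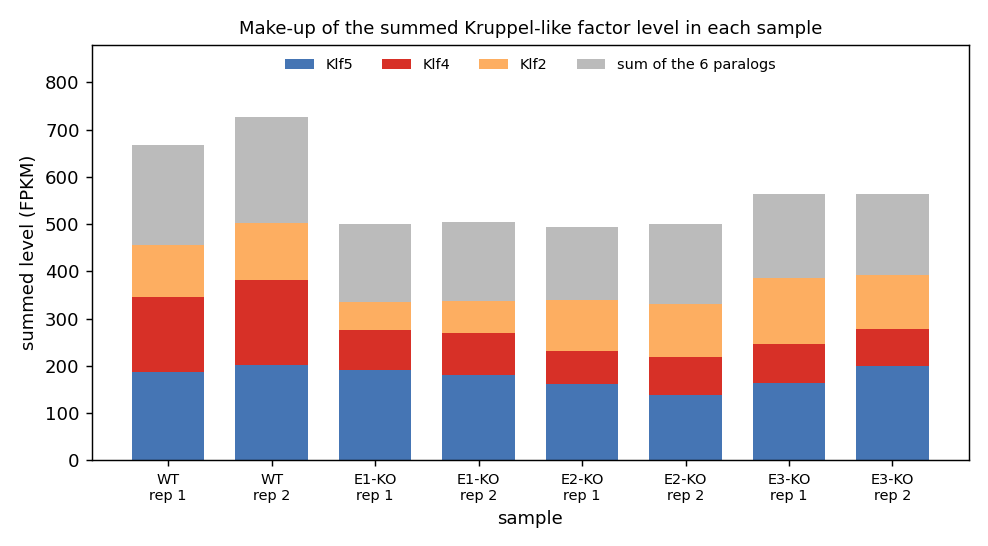
Stacked bars of the summed level in FPKM in each of the 8 samples, split into Klf5, Klf4, Klf2 and the sum of the 6 paralogs. The total is 666.6 and 727.1 FPKM in WT and 494.1 to 564.3 FPKM in the knockout samples, and the Klf4 segment is smaller in all 6 of these.

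Of the paralogs, Klf6, Klf9, Klf10 and Klf13 fell in all 3 knockouts. Together with Klf4 they made 5 of 9 members called lower in every knockout, where 13.0% of all tested genes were (none of the 9 was higher in all 3, against 6.56% of all genes). With median-ratio scaling only Klf4 and Klf13 of these 5 were still called lower in every knockout. The share of all tested genes lower in every knockout was not computed for that scaling. Klf13, a regulator of the chemokine RANTES in T cells, went from 17.48 and 20.27 FPKM in WT to 11.96 and 12.93 (E1-KO), 10.37 and 12.71 (E2-KO), and 10.66 and 11.4 (E3-KO). All 6 knockout samples lay below both WT samples. The log2 fold changes were -0.56, -0.67 and -0.72 (standard error 0.131 each, limma-trend adjusted p = 0.0101, 0.00511 and 0.00251). The call in E1-KO ended without E1-KO replicate 1 (adjusted p = 0.075) or WT replicate 2 (0.0922), and that in E2-KO without WT replicate 2 (0.0542).

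Klf6, an early response gene with roles in liver and blood vessel development, measured 11.26 and 11.19 FPKM in WT. The knockouts had 8.071 and 8.764 (E1-KO), 6.655 and 7.769 (E2-KO), and 6.662 and 5.909 (E3-KO), again with no overlap with WT. The fold changes were -0.38, -0.58 and -0.75 (standard error 0.125 each, limma-trend adjusted p = 0.0411, 0.00773 and 0.00175). The means thus went from 75.0% of WT in E1-KO to 56.0% in E3-KO, but the difference between these lines (-0.37, 95% interval -0.65 to -0.09) did not pass (limma-trend adjusted p = 0.0574). The call in E1-KO ended with quantile normalization (-0.240, adjusted p = 0.135), with median-ratio scaling (-0.309, adjusted p = 0.0775), with all genes above 0 (0.0643) and without any 1 sample of E1-KO or WT. That in E2-KO ended without WT replicate 1 (0.0512) or 2 (0.0539).

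Klf9, a target of glucocorticoid and thyroid hormone that acts in neurons, measured 56.27 and 58.37 FPKM in WT. The knockouts had 40.12 and 42.25 (E1-KO), 37.55 and 38.97 (E2-KO), and 41.47 and 46.79 (E3-KO), all below WT. The fold changes were -0.47, -0.57 and -0.37 (standard error 0.0973 each, limma-trend adjusted p = 0.00614, 0.00277 and 0.0134). In E3-KO median-ratio scaling gave -0.199 (adjusted p = 0.145), and the call also ended without E3-KO replicate 1 (0.0565) or WT replicate 1 (0.0579) or 2 (0.0938). The call in E1-KO ended without E1-KO replicate 1 (0.0578) or WT replicate 2 (0.0572).

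Klf10, an early gene of the TGF-beta response, fell with more scatter. WT had 51.42 and 52.31 FPKM, E1-KO 37.85 and 36.43, E2-KO 31.36 and 40.79, and E3-KO 41.18 and 29.7. All knockout samples were below WT, but the replicates of E2-KO (SD 6.67) and of E3-KO (SD 8.12) lay farther apart than those of WT (SD 0.628). The fold changes were -0.47, -0.52 and -0.55 (standard error 0.164 each, limma-trend adjusted p = 0.0482, 0.034 and 0.0224). Median-ratio scaling ended all 3 calls (adjusted p = 0.0767, 0.0601 and 0.0804), as did the inclusion of all genes above 0 (0.098, 0.0759 and 0.0527) and leaving out WT replicate 1 (0.145, 0.118 and 0.0837) or 2 (0.173, 0.14 and 0.101). In E1-KO the call also ended without either E1-KO sample, in E2-KO without E2-KO replicate 1 or either E1-KO sample, and in E3-KO without E3-KO replicate 2.

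Klf16, a repressor of the family branch that recruits SIN3, separated the knockouts. Its samples had 19.88 and 21.56 FPKM in WT, 14.59 and 15.55 (E1-KO), 17.97 and 18.64 (E2-KO), and 14.21 and 12.85 (E3-KO). The knockout samples were all below WT, and those of E2-KO were nearest to it. It fell in E1-KO (-0.43, standard error 0.106, limma-trend adjusted p = 0.0123) and E3-KO (-0.58, 0.106, adjusted p = 0.00259), and its fold change in E2-KO was -0.17 (95% interval -0.41 to 0.07, adjusted p = 0.239). The call in E1-KO ended without E1-KO replicate 1 (0.0915) or WT replicate 2 (0.103). The difference between E3-KO and E2-KO was called (-0.41, limma-trend adjusted p = 0.0321), 1 of 2 members called there beside 15.6% of all tested genes (5.48% higher, 10.1% lower). It was not called after quantile normalization (-0.336, adjusted p = 0.0521), median-ratio scaling (-0.332, adjusted p = 0.0562) or scaling without the 50 highest genes (-0.303, adjusted p = 0.0974), in the pair alone (0.133), or without replicate 1 or 2 of WT, of E1-KO or of E2-KO or without E3-KO replicate 2. Between E2-KO and E1-KO Klf16 differed by 0.27 (95% interval 0.02 to 0.51, adjusted p = 0.231).

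Klf3, a repressor that recruits CtBP and acts in red cells and fat, did not pass against WT in any knockout. It measured 54.59 and 60.41 FPKM in WT, 54.18 and 52.58 (E1-KO), 50.1 and 48.59 (E2-KO), and 64.74 and 64.94 (E3-KO). Both E3-KO samples were the highest of the 8 and both E2-KO samples the lowest. The fold changes were -0.10 (95% interval -0.31 to 0.10), -0.21 (-0.42 to -0.01, limma-trend adjusted p = 0.0981) and 0.17 (-0.04 to 0.38, adjusted p = 0.157). Scaling without the 50 highest genes made it lower in E2-KO (-0.268, adjusted p = 0.0423), and median-ratio scaling made it higher in E3-KO (0.346, adjusted p = 0.0129). Klf3 was higher in E3-KO than in E2-KO by 0.39 (standard error 0.0922, limma-trend adjusted p = 0.0237). That call missed the threshold in the samples of the 2 groups alone (adjusted p = 0.124) and when any 1 sample of E1-KO, E2-KO or E3-KO was left out. Between E3-KO and E1-KO, where Klf2 was the single member called beside 25.8% of all tested genes (9.42% higher, 16.4% lower), Klf3 had a difference of 0.28 (adjusted p = 0.0556) that passed after quantile normalization (0.363, adjusted p = 0.016), median-ratio scaling (0.376, adjusted p = 0.0146), scaling without the 50 highest genes (0.351, 0.0211), with all genes above 0 (0.276, 0.0469) and without E2-KO replicate 1 (0.0456) or 2 (0.0458).

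**Figure D3:**
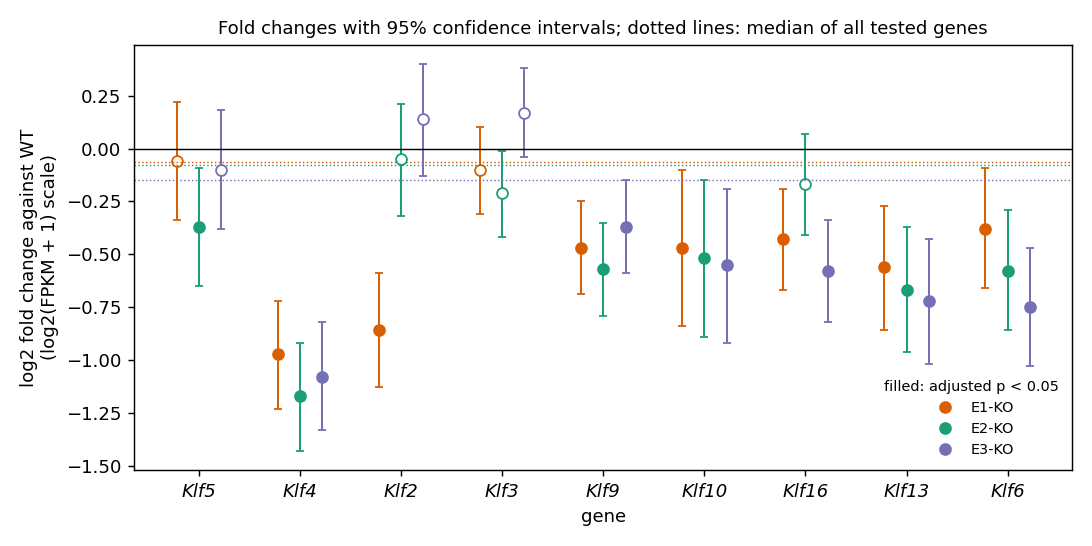
Log2 fold change of each member against WT, by knockout, with 95% confidence intervals, filled where the adjusted p was under 0.05, and dotted lines at the median of all tested genes. Klf4 is near -1 in all 3 knockouts, Klf2 is filled in E1-KO alone, Klf3 is open throughout, and Klf6, Klf9, Klf10 and Klf13 are filled at values from -0.37 to -0.75.

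The likeness of expression patterns was measured as the root mean square difference of centred log2(FPKM + 1) values over the 8 samples, where a small value means a like pattern. Within the family, Klf6 and Klf13 were the nearest pair (0.116) and Klf2 and Klf4 the farthest (0.562). Over all tested genes, Klf4 was nearest to Ephb3 (0.0807), an ephrin receptor, to Pdzd2 (0.0877) and to Nbeal1 (0.0892). Ephb3 had means of 11.8, 4.906, 4.585 and 4.799 FPKM in WT, E1-KO, E2-KO and E3-KO, the same single step down from WT. Klf2 was nearest to Arl14epl (0.0953), Slc6a15 (0.103), an amino acid transporter, and Ppp2r2c (0.105). Arl14epl had means of 48.16, 28.01, 43.74 and 53.09 FPKM in the same order of groups, low in E1-KO as Klf2 was. Klf5 was nearest to Nipbl (0.0357), the cohesin loader, Rock2 (0.0406) and Tmem131 (0.0548), but its own standard deviation was only 0.183, against 0.428 for Klf2 and 0.509 for Klf4, so that a small difference says less there. The samples share their groups, and these values are descriptions.

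The rest of the KLF and SP family had 12 of 17 genes tested in the same fit, and its share of called genes was near that of all tested genes. Called lower were 3, 3 and 4 genes in the knockouts E1, E2 and E3, and 1 was higher, in E2-KO, with medians of -0.05, -0.28 and -0.18. Of all tested genes 23.0%, 22.0% and 30.8% were lower and 15.0%, 14.2% and 13.9% higher, with medians of -0.06, -0.08 and -0.15, and the lists below are read against these shares. In E3-KO 2 genes of the family were called after quantile normalization, after median-ratio scaling and at a minimum mean of 5 FPKM. Of all genes in those fits 42%, 41.9% and 46.5% were called. Sp5, a WNT target and a rival of SP1-type activators, had the lowest fold changes, with levels from 9.074 and 10.78 FPKM in WT to 1.179 and 1.249 (E1-KO), 0.3801 and 0.3682 (E2-KO), and 0.7407 and 1.15 (E3-KO). The fold changes were -2.30, -2.99 and -2.49. Sp5 passed the filter on low values through WT, since the mean of its knockout samples was below that filter, so a lower level was built into its being tested and its values are a description; it is among the genes counted as lower in each knockout. Klf15, known from muscle and liver metabolism, fell from 24.21 and 25.57 FPKM in WT to 10.62 and 11.18, 11.83 and 14.06, and 6.243 and 4.374 FPKM (fold changes -1.12, -0.90 and -2.05). Klf15 lies on chromosome 6, whose 536 tested genes had a median fold change of -0.62 in E3-KO against -0.13 for the other chromosomes, and of -0.05 and -0.07 in E1-KO and E2-KO. Klf11, the near relative of Klf10, fell by 0.71, 0.43 and 0.48 on the log2 scale in the 3 knockouts, where the calls in E2-KO and E3-KO (limma-trend adjusted p = 0.0444 and 0.0246) ended without either WT sample, after quantile normalization (-0.291 and -0.262, adjusted p = 0.148 and 0.174) and after median-ratio scaling (-0.345 and -0.315, adjusted p = 0.0997 and 0.116). In E2-KO the Klf11 call also ended with all genes above 0 (0.08), in the pair alone (0.0714) and without any 1 of the other knockouts' samples or E2-KO replicate 1 (-0.227, adjusted p = 0.239), and in E3-KO with scaling without the 50 highest genes (0.0608) and without either E3-KO sample. Sp2 was higher in E2-KO (0.83, limma-trend adjusted p = 0.012). That call ended without WT replicate 1 or 2, where the fold changes were 0.788 and 0.865. Klf12 was lower in E3-KO (-0.59, limma-trend adjusted p = 0.0224) and was named for its call after its values had been seen. None of the 9 members lies on chromosome 6.

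Genes of the LIF and STAT3 input to the KLF genes were called only as lower. Of 12 tested genes 5, 6 and 9 fell in the knockouts E1, E2 and E3, with medians of -0.26, -0.34 and -0.55, beside 23.0%, 22.0% and 30.8% lower among all tested genes. Over all alternatives, the stricter thresholds included, 1 to 6, 1 to 7 and 1 to 9 of them were called. The low ends came when a log2 fold change of 1 or more in size was also required. In that setting 6.27%, 5.79% and 8.29% of all tested genes were called. Pim1, a kinase gene induced by STAT3, went from 104.1 FPKM on average in WT to 37.78, 44.06 and 40.24 (fold changes -1.44, -1.22 and -1.35). Pim3 fell by 0.67, 0.56 and 0.99 and the JAK family kinase gene Tyk2 fell by 0.68, 0.61 and 0.99. Il6st, which encodes the shared receptor chain gp130, fell by 0.46, 0.68 and 0.71. Without WT replicate 2 the calls of Pim3 and Tyk2 in E2-KO (limma-trend adjusted p = 0.0845 and 0.0597) and of Il6st in E1-KO (0.0706) ended, the last also without E1-KO replicate 1 (0.0641). Stat3 itself fell by 0.49, 0.42 and 0.58 (limma-trend adjusted p = 0.0246, 0.0434 and 0.0101), with WT samples at 46.81 and 60.46 FPKM. The alternatives were not run for Stat3, which is counted in the next list as well. Lifr, the LIF receptor gene, had fold changes of -0.21 (limma-trend adjusted p = 0.187), -0.37 (0.0363) and -0.63 (0.00308).

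The pluripotency factors that act with KLF proteins did not move as one. Of 13 tested genes, 8 fell and none rose for E1-KO, 5 fell and 3 rose for E2-KO, and 7 fell and 1 rose for E3-KO, with medians of -0.46, -0.24 and -0.50. The shares of all tested genes called were 38.0%, 36.1% and 44.7%. Over all alternatives, the stricter thresholds included, 2 to 12, 0 to 10 and 0 to 9 genes of the list were called. The low ends came with the added log2 fold change of 1, where 6.27%, 5.79% and 8.29% of all tested genes were called. With all genes above 0 there were 5 in E1-KO and 5 in E2-KO, beside 22.7% and 21.1% of all genes in that fit. Beside Sox2 (fold changes -1.16, -0.34 and -0.50), Tfcp2l1, a naive factor downstream of STAT3, fell by 1.01, 0.82 and 0.59. The call of Sox2 in E2-KO ended with median-ratio scaling (-0.249, adjusted p = 0.071), in limma without trend (0.0519), in the pair alone (0.0567) and without either WT sample, either E1-KO sample or E2-KO replicate 2 (-0.230, adjusted p = 0.117). Prdm14 fell by 0.81, 0.48 and 0.55, where the call in E2-KO ended without E2-KO replicate 1 (0.0635) or WT replicate 2 (0.105) and that in E3-KO without WT replicate 2 (0.0541). Nr0b1 fell in E1-KO and E3-KO (-0.65 and -0.76), with -0.17 in E2-KO (limma-trend adjusted p = 0.504). Its call in E1-KO ended with all genes above 0 (0.0582) and without E1-KO replicate 1 (0.0853) or 2 (0.103) or WT replicate 2 (0.153), and that in E3-KO without WT replicate 2 (0.0811). Pou5f1, Zfp42 and Sall4 were the 3 that rose in E2-KO, by 0.42, 0.51 and 0.35, and Sall4 also rose in E3-KO by 0.53. Nanog, which lies on chromosome 6, passed in none of the 3 comparisons (0.17, 0.31 and -0.19).

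Genes named as targets of Klf2, Klf4 and Klf5 in stem cells went in both directions. Of 11 tested genes, 5 of which are also in the list before, 5 fell and 1 rose for E1-KO, 3 fell and 3 rose for E2-KO, and 4 fell and 2 rose for E3-KO, with medians of -0.32, -0.20 and -0.19. Of all tested genes 23.0%, 22.0% and 30.8% were lower and 15.0%, 14.2% and 13.9% higher. Over all alternatives, the stricter thresholds included, 2 to 8, 2 to 8 and 1 to 8 genes of the list were called. The low ends came with the added log2 fold change of 1, where 6.27%, 5.79% and 8.29% of all tested genes were called. Tcl1, an AKT coactivator, fell by 1.46, 0.93 and 1.28. Cdkn1a, the p21 cell cycle inhibitor that KLF4 activates in other cells, went from 123.7 FPKM on average in WT to 49.87, 47.98 and 72.19 (fold changes -1.29, -1.36 and -0.78). Lefty1, a Nodal inhibitor, fell in E2-KO (-1.27, limma-trend adjusted p = 0.0147), with -0.64 and -0.57 in the others. That call ended without E2-KO replicate 1 (-0.850, adjusted p = 0.0936) or WT replicate 1 (-0.938, adjusted p = 0.108). Tcf7l1, a repressor of the naive network, rose in all 3 (0.80, 0.75 and 0.47), and lies on chromosome 6. In E3-KO the rise was 0.231 without E3-KO replicate 2 (limma-trend adjusted p = 0.131), and the call also ended without WT replicate 1 (0.127) or 2 (0.0873), with all genes above 0 (0.0557) and in the pair alone (0.0537). Tbx3 fell in E1-KO (-0.58), with -0.30 in E2-KO (limma-trend adjusted p = 0.063) and -0.07 in E3-KO (adjusted p = 0.642).

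Among 13 cofactors and ubiquitin ligases of KLF proteins, 5 fell and 1 rose for E1-KO, 3 fell and none rose for E2-KO, and 4 fell and 3 rose for E3-KO (medians -0.21, -0.13 and -0.18). Beside the 38.0%, 36.1% and 44.7% of all tested genes that were called, the 6, 3 and 7 called genes of 13 are not far from the background. When all genes above 0 were tested, 3, 1 and 5 genes of the list were called, beside 22.7%, 21.1% and 29.1% of all genes in that fit. Ctbp1, the corepressor gene whose product KLF3 recruits, fell by 0.41, 0.41 and 0.80. Its calls in E1-KO and E2-KO ended without either WT sample, without either E1-KO sample and when all genes above 0 were tested (0.053 and 0.0585 for the adjusted p of limma-trend), and in E2-KO also with median-ratio scaling (-0.320, adjusted p = 0.0636), in the pair alone (0.0517) and without E2-KO replicate 2 (-0.253, adjusted p = 0.158). Its relative Ctbp2 had fold changes of 0.01, 0.06 and 0.04. Vhl, a ligase subunit gene on chromosome 6, fell by 0.69, 0.73 and 0.71, calls that each ended without WT replicate 2 (limma-trend adjusted p = 0.183, 0.165 and 0.153), after quantile normalization (0.0538, 0.0506 and 0.0784) and with all genes above 0 (0.0781, 0.0698 and 0.0629). Wwp1, a ligase that targets KLF2 and KLF5, fell by 0.41, 0.44 and 0.49. Sin3b fell in E1-KO (-0.65, but adjusted p = 0.0535 without WT replicate 2) and Kat2b, an acetyltransferase gene, in E3-KO (-0.55).

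**Figure D4:**
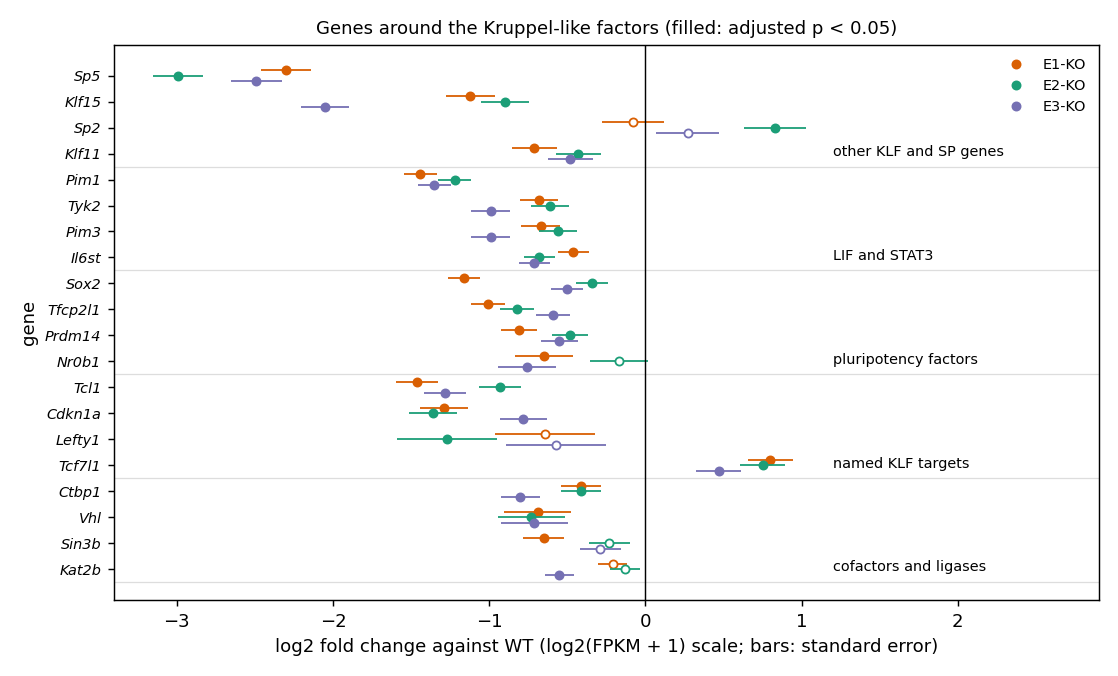
Log2 fold changes against WT with standard errors for the named genes of the 5 lists, by knockout, filled where the adjusted p was under 0.05. Sp5 lies furthest to the left in all 3 knockouts, and Tcf7l1 is to the right of 0 in all 3 knockouts.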

How the data were processed

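Total RNA libraries of 8 samples (4 groups, 2 replicates each, grouped and numbered by the sample titles) were sequenced as paired-end reads of 150 bases, per the labels' protocols. Trimmomatic 0.36, TopHat2 2.0.12, Cufflinks 2.2.1 and the build mm9 are named in the submitters' processing notes. The authors deposited 1 value per row and sample, taken here as FPKM because Cufflinks is named and the values are not whole numbers. The annotation and any normalization between samples are not given in the sources used here. FPKM values share 1 total per sample, so a shift in a few abundant genes moves all others.

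Each file held 18774 rows with 17812 identifiers, 17262 of them with a symbol in the gene name table. Of the 660 identifiers with more than 1 row, 575 were represented by the row at the gene's place in the row order and 85 were left out. Genes that averaged 1 FPKM or more were tested on log2(FPKM + 1) with limma-trend (limma 3.58.1, R 4.3.3), with all 8 samples and the group as the only term, 4 residual degrees of freedom and Benjamini-Hochberg adjustment over 11269 genes. The fit was tested on simulated data. Figures used matplotlib 3.10.9.

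The members and the gene lists were chosen with earlier results of these data known. Genes named beside the members were Sox2, up to 4 called genes per list with the largest absolute fold change, and the 3 genes nearest in pattern to Klf2, Klf4 and Klf5. List genes named beyond that rule (Stat3, Lifr, Klf12, Pou5f1, Zfp42, Sall4, Nanog, Tbx3, Ctbp2, Wwp1, the stem cell markers Dppa5a, Utf1 and Lin28a, and the feeder markers Thy1 and Pdgfrb) were chosen after their values were seen. Alternatives tried were the replicate block, the samples of a pair alone, 3 other scalings, no trend, 2 other filters, 2 other thresholds, another pseudocount, both other treatments of repeated identifiers and leaving out each sample.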

Additional observations from a re-analysis of the deposited data

Results flagged for a closer look

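The following genes differed between knockouts when tested directly by limma-trend (adjusted p under 0.05 over all tested genes), with differences on the log2 scale. Among the members, Klf2 was higher in E2-KO than in E1-KO by 0.81 and higher in E3-KO than in E1-KO by 1.00. Klf3, not called against WT in any knockout, was higher in E3-KO than in E2-KO by 0.39, and Klf16 was lower there (-0.41). All of these member calls but that of Klf2 between E3-KO and E1-KO ended under several alternatives, as given above.

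Shares of all tested genes called were 0.834% (E2-KO against E1-KO), 25.8% (E3-KO against E1-KO) and 15.6% (E3-KO against E2-KO). The first share was 0.00887% in the samples of the pair alone. Among the genes around the members, Sox2 was higher in E2-KO and E3-KO than in E1-KO (0.82 and 0.66, limma-trend adjusted p = 0.016 and 0.00223). Klf15 was lower in E3-KO than in E1-KO (-0.93, limma-trend adjusted p = 0.00308) and than in E2-KO (-1.16, 0.00223). It lies on a chromosome whose genes had a median fold change of -0.62 in E3-KO. Pim3 was lower in E3-KO than in E2-KO (-0.43, limma-trend adjusted p = 0.0448). Tfcp2l1 was higher in E3-KO than in E1-KO (0.42, limma-trend adjusted p = 0.0209). Cdkn1a was higher in E3-KO than in E1-KO (0.51, limma-trend adjusted p = 0.0372) and than in E2-KO (0.58, 0.0352). Kat2b was lower in E3-KO than in E1-KO (-0.35, limma-trend adjusted p = 0.0262) and than in E2-KO (-0.42, 0.0192). For these genes the alternatives were run only against WT, so whether their calls between knockouts hold under them was not tested.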

How the results depend on the processing

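No call of a member, 19 against WT and 4 between knockouts, changed direction under any of the 21 alternatives. Leaving aside the stricter thresholds, 8 of the 19 passed under every alternative: Klf4 in each knockout, Klf2 in E1-KO, Klf9 in E2-KO, and Klf6, Klf13 and Klf16 in E3-KO. The count in E1-KO was 3 at an adjusted p under 0.01, beside 20% of all tested genes. It was 0 when a log2 fold change of 1 or more in size was required beside an adjusted p under 0.05. That left 1 member in E2-KO and 1 in E3-KO, beside 6.27%, 5.79% and 8.29% of all tested genes in the knockouts E1, E2 and E3. Between knockouts it left 0.364% (E2-KO against E1-KO), 4.97% (E3-KO against E1-KO) and 2.37% (E3-KO against E2-KO) of all tested genes. Leaving out each sample gave 2 to 7 members in E1-KO, 2 to 6 in E2-KO, 4 to 6 in E3-KO and 4 to 8 for the 4 groups. Same-numbered samples did not deviate together (correlation of deviations -0.042 to 0.089), so the numbers were not taken as pairs. With the replicate block the counts were 5, 4 and 6 against WT and 7 for the 4 groups, and 0 (E2-KO against E1-KO), 1 (E3-KO against E1-KO) and 2 (E3-KO against E2-KO) between knockouts. Of all tested genes the block called 36%, 34.2% and 42.7% against WT, and 0.275%, 23.9% and 13.5% between knockouts in the same order. The block ended the calls of Klf6 (adjusted p = 0.0557) and Klf10 (0.0681) in E1-KO, of Klf5 (0.0632) and Klf10 (0.0507) in E2-KO and of Klf2 between E2-KO and E1-KO (0.0572). The single call between E2-KO and E1-KO became 0 with both stricter thresholds, all genes above 0, the block and the pair alone, and was 0 to 1 without single samples. Between E3-KO and E1-KO 2 members were called with all genes above 0 and each of the 3 other scalings, 0 with the added fold change and 1 to 3 without single samples. Between E3-KO and E2-KO there was 1 with each of these scalings, 0 with both stricter thresholds or the pair alone, and 0 to 1 without single samples.

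The alternatives were run for the members, the counts of the lists and the genes plotted beside them, not for Stat3, Lifr, Klf12, Pou5f1, Zfp42, Sall4, Nanog, Tbx3, Ctbp2, Wwp1, Dppa5a, Utf1, Lin28a, Thy1 and Pdgfrb. For the list counts and the plotted genes they covered the comparisons with WT only, and for the members also those between knockouts. Among the genes covered, the sign turned in 10 member results that were not called and in 3 uncalled results of Sp2 and Nr0b1. Quantile normalization gave 0.061 for Klf5 and 0.002 for Klf10 (E3-KO minus E1-KO), and 0.046 for Klf10 and 0.016 for Klf13 (E3-KO minus E2-KO). Median-ratio scaling gave Klf5 0.016 (E1-KO), 0.077 (E3-KO) and 0.060 (E3-KO minus E1-KO), Klf2 0.036 (E2-KO), Klf10 0.015 (E3-KO minus E1-KO) and, for E3-KO minus E2-KO, Klf10 0.052 and Klf13 0.025. Scaling without the 50 highest genes gave Klf5 0.035 (E3-KO minus E1-KO) and, for E3-KO minus E2-KO, Klf10 0.080 and Klf13 0.051. Without single samples the ranges were -0.237 to 0.132 for Klf10 and -0.241 to 0.029 for Klf13 (E2-KO minus E1-KO), -0.022 to 0.213 for Klf4, -0.260 to 0.198 for Klf10 and -0.189 to 0.081 for Klf13 (E3-KO minus E2-KO), -0.179 to 0.097 for Klf5 and -0.313 to 0.146 for Klf10 (E3-KO minus E1-KO), -0.236 to 0.039 for Klf5 in E3-KO, -0.127 to 0.019 for Klf2 in E2-KO, -0.177 to 0.012 and -0.092 to 0.639 for Sp2 in E1-KO and E3-KO, and -0.468 to 0.134 for Nr0b1 in E2-KO. The cause was not tested. The depth is known only as a ratio, so no counting error could be given.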
